A study of Mus musculus with 21 samples.

Results

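The miR-181 family in mouse heart is described here through its guide strands, miR-181a-5p, miR-181b-5p, miR-181c-5p and miR-181d-5p, 4 of the 1903 microRNA names in a table of small RNA read counts. They were chosen by name, and all 4 passed the filter on low counts. Each library was made from the left ventricle of a different C57BL/6J mouse, 21 in all, and the labels list no genetic modification. The groups differ in surgery and drug. TAC+PDE5A-I (5 mice) had transverse aortic constriction, which loads the left ventricle with pressure, and the PDE5A inhibitor sildenafil. TAC+PDE9A-I (6 mice) had the same surgery and the PDE9A inhibitor PF-04449613. TAC (5 mice) had the surgery and Sham (5 mice) had sham surgery, both with no drug in the labels. Either drug was given for 4 weeks from 1 week after surgery. The sources used here give no dose, age or vehicle.

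A microRNA guide strand sits in an Argonaute protein and pairs, mainly through its seed (bases 2 to 8 from the 5′ end), with messenger RNAs that are then repressed. The opposite arm of the hairpin, the passenger strand, is usually degraded. In mouse T cells miR-181a tunes the sensitivity of the T-cell receptor, in mouse endothelium miR-181b restrains NF-kappaB signalling, and in rat heart cells miR-181c acts on a mitochondrial transcript. Phosphodiesterases 5A and 9A degrade cyclic GMP, a messenger that restrains pressure-induced heart growth.

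The guide sequences are shown because every comparison turns on reads that differ in a few bases. Sequences and positions are from RefSeq on GRCm38.p6, 5′ to 3′, with the seed in capitals.
miR-181a-5p: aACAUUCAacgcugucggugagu
miR-181b-5p: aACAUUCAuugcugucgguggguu
miR-181c-5p: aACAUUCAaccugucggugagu
miR-181d-5p: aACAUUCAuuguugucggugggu
The seed ACAUUCA is identical in all 4, and no other mature arm in the RefSeq table carries it. Counting from 1 at the 5′ end of the first-named strand, miR-181a-5p and miR-181b-5p differ at A9U, C10U and A21G, and miR-181b-5p is 1 base longer. The guide of miR-181d-5p differs from miR-181b-5p at C12U, and miR-181b-5p has 1 further end base. Aligned to miR-181a-5p, miR-181c-5p has 0 substitutions and lacks 1 base, at position 11. Lengths are 22 to 24 bases and GC contents are 47.8% for miR-181a-5p, 45.8% for miR-181b-5p, 45.5% for miR-181c-5p and 43.5% for miR-181d-5p. Reads of such close relatives can be assigned to one another, so each value carries that uncertainty.

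The family lies in 3 clusters. Mir181a-1 and Mir181b-1 give miR-181a-5p at chr1:137966468-137966490 and miR-181b-5p at chr1:137966650-137966673 on the plus strand, inside an intron of the noncoding transcript Gm4258. Mir181b-1 also overlaps an exon of the long noncoding RNA A430106G13Rik on the same strand. Mir181a-2 and Mir181b-2 give the same guides at chr2:38852741-38852763 and chr2:38853845-38853868 on the plus strand, inside an intron of Nr6a1, which is on the other strand and encodes a nuclear receptor. Mir181b-2 also overlaps an exon of Gm44144 on the other strand. Both copies of each guide are identical, so their reads cannot be divided between chromosomes 1 and 2. Mir181c and Mir181d give miR-181c-5p at chr8:84178924-84178945 and miR-181d-5p at chr8:84178759-84178781 on the minus strand, inside an intron of Nanos3, a gene known for germ cells. Gene models are from GENCODE M21 on the same assembly. For the deposited counts, the sources used here name no build.

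Some libraries stood apart. Total counts ran from 1205417 to 3969716 in TAC+PDE5A-I, 1546318 to 7532591 in TAC+PDE9A-I, 5373960 to 8497792 in TAC and 3766517 to 7490436 in Sham. Under 2000000 counts lay 4 libraries, TAC+PDE5A-I 3, 4 and 5 and TAC+PDE9A-I 5. In these 4 the count-weighted GC content of the microRNAs was 47.2% to 48.6%, against 44.6% to 46.0% in the other 17. Summed endothelial markers (miR-126a, both arms, none at 0) ran from 999 to 15676 CPM in TAC+PDE5A-I and from 25780 to 42969 CPM in TAC. Summed cardiomyocyte markers (4 of 4 measured, none at 0) ran from 140605 to 268930 CPM in TAC+PDE5A-I and from 77720 to 144036 CPM in TAC. Calls in drug-treated hearts are given with and without these libraries.

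Levels are given as CPM, counts scaled to library size and by TMM factors. miR-181a-5p made up most of the family. Its mean over the 21 libraries was 19049 CPM, rank 12 of the 1903 names, and it took 82.3% to 91.5% of the family's counts in each library. The next members were miR-181c-5p at 1677 CPM (rank 49), miR-181b-5p at 1164 CPM (rank 55) and miR-181d-5p at 277 CPM (rank 105). One read is 1 small RNA, so no length scaling applies, but ligation and amplification bias make counts of different microRNAs an uncertain guide to molecule numbers. The lowest count of any guide was 237, for miR-181d-5p in TAC+PDE5A-I 5. Every guide was therefore well above the 3 counts that a count of 0 allows, a limit that covers counting error only.

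**Figure D1:**
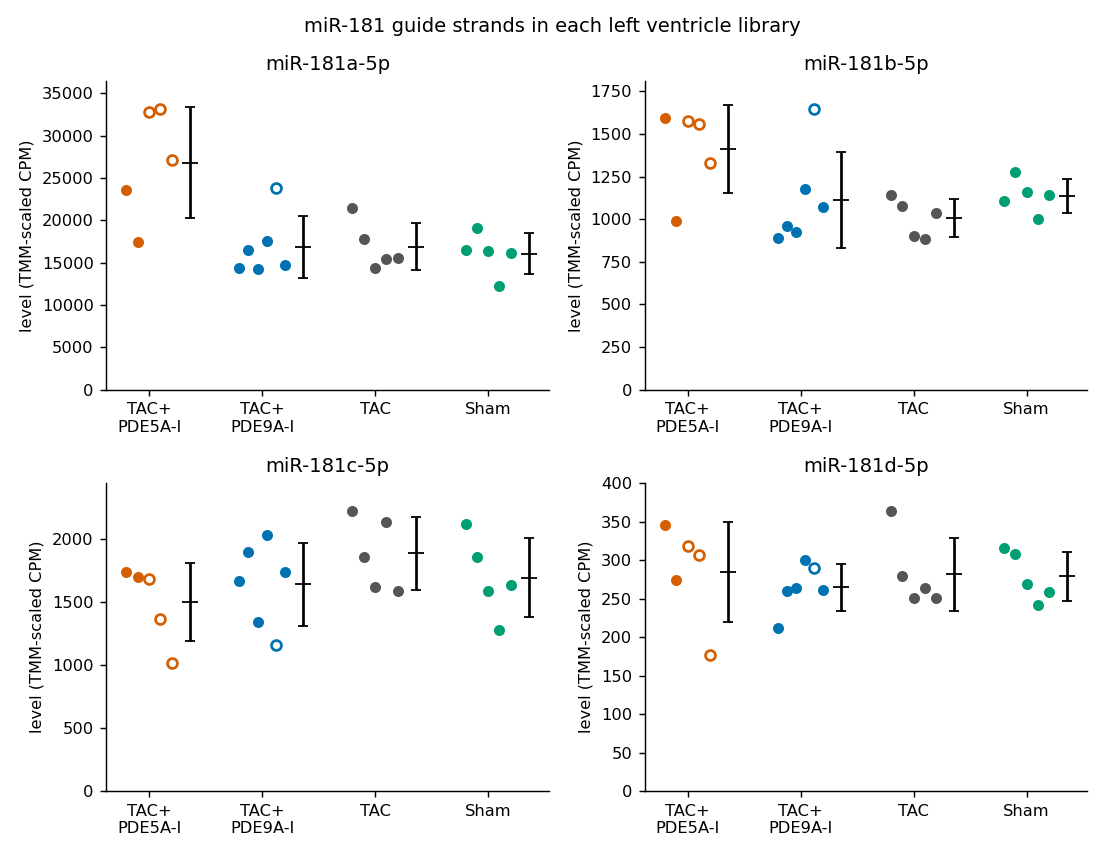
Level of each miR-181 guide strand (y axis, TMM-scaled CPM) in each library, by group (x axis). Each circle is 1 mouse, open circles are the 4 libraries under 2000000 counts, and bars are mean ± SD. For miR-181a-5p the open circles of TAC+PDE5A-I lie at 27161 to 33124 CPM, above every TAC and Sham library.

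The first question is what pressure overload alone did to the family, and no guide passed the test. miR-181a-5p was at 21418, 17774, 14365, 15384 and 15533 CPM in TAC hearts, against 16495, 19085, 16380, 12277 and 16104 CPM in Sham hearts. miR-181b-5p was at 1143, 1075, 903, 881 and 1035 CPM in TAC hearts, against 1108, 1275, 1160, 999 and 1141 CPM in Sham hearts. For both guides the ranges overlapped.

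Levels of miR-181c-5p were 2222, 1859, 1622, 2135 and 1586 CPM in TAC hearts, against 2118, 1852, 1586, 1275 and 1636 CPM in Sham hearts. Levels of miR-181d-5p were 364, 280, 251, 264 and 251 CPM in TAC hearts, against 316, 308, 270, 242 and 259 CPM in Sham hearts. Again the groups overlapped. TAC 1 gave the highest value of miR-181a-5p, miR-181c-5p and miR-181d-5p in either group, and the highest of miR-181b-5p among TAC hearts.

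Log2 fold changes in TAC against Sham were 0.07 ± 0.20 (SE) for miR-181a-5p, -0.17 ± 0.18 for miR-181b-5p, 0.15 ± 0.20 for miR-181c-5p and 0.01 ± 0.17 for miR-181d-5p. With edgeR's quasi-likelihood test and Benjamini-Hochberg adjustment over 561 microRNAs, adjusted p ran from 0.843 to 0.986. Of the 4 guides 0 were called, 0 had an unadjusted p under 0.05 and 0 were called by DESeq2, while 2.32% of all 561 microRNAs were called in either direction. The 95% intervals ran from -0.34 to 0.49 for miR-181a-5p, from -0.55 to 0.20 for miR-181b-5p, from -0.25 to 0.56 for miR-181c-5p and from -0.35 to 0.38 for miR-181d-5p. Changes inside those limits could not be told from 0 with 5 mice a group. The median log2 fold change was 0.04 over the 4 guides and -0.08 over all 561. These p-values measure the spread between mice. In bulk tissue, fewer cells of a type and less RNA per cell cannot be told apart.

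Within a library, the balance between guides differed slightly after TAC. There were 15.01 to 18.7 counts of miR-181a-5p per count of miR-181b-5p in TAC hearts, against 12.3 to 14.96 in Sham hearts, and each TAC library lay above every Sham library. The averages were 16.7 ± 1.43 in TAC and 14.1 ± 1.08 in Sham (SD, n = 5 each). Among the levels of all 561 single microRNAs, the groups of 16.9% did not overlap in TAC against Sham. No such share was computed for ratios between all microRNAs. Over 4 guide ratios and 6 comparisons, 2 of 24 had groups that did not overlap, miR-181a-5p to miR-181b-5p and 1 given below. These ratios were looked at after their values were seen and were not tested. Counts of miR-181a-5p per count of miR-181c-5p overlapped, at 7.20 to 9.80 in TAC and 7.79 to 10.3 in Sham.

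A comparison of sildenafil-treated with untreated TAC hearts asks what PDE5A inhibition did under pressure overload. Both chromosome 1 and 2 guides were higher: miR-181a-5p rose 1.59-fold and miR-181b-5p rose 1.40-fold, while miR-181c-5p and miR-181d-5p, from chromosome 8, did not pass the test. Neither call held without the 4 shallow libraries.

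miR-181a-5p was at 23521, 17489, 32782, 33124 and 27161 CPM in TAC+PDE5A-I hearts, against 21418, 17774, 14365, 15384 and 15533 CPM in TAC hearts. The last 3 sildenafil values are those of the libraries under 2000000 counts, and they are the highest of the study. Of the 2 deeper sildenafil libraries, 1 lay above all TAC hearts and 1 lay between them, so the groups overlapped. Averages were 26815 ± 6583 CPM in TAC+PDE5A-I and 16895 ± 2818 CPM in TAC (SD, n = 5 each). The log2 fold change was 0.67 ± 0.20 (edgeR's quasi-likelihood test, adjusted p = 0.0124).

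miR-181b-5p was at 1596, 991, 1575, 1557 and 1327 CPM in TAC+PDE5A-I hearts, against 1143, 1075, 903, 881 and 1035 CPM in TAC hearts. All sildenafil libraries but the second lay above every TAC library, among them 1 of the deeper pair. The averages were 1409 ± 258 CPM in TAC+PDE5A-I and 1007 ± 112.4 CPM in TAC (SD, n = 5 each), and the log2 fold change was 0.48 ± 0.18 (edgeR's quasi-likelihood test, adjusted p = 0.0333).

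miR-181c-5p was at 1733, 1699, 1683, 1368 and 1016 CPM in TAC+PDE5A-I hearts, against 2222, 1859, 1622, 2135 and 1586 CPM in TAC hearts. The 2 lowest values were in shallow libraries, in which miR-181a-5p was high. Its log2 fold change was -0.33 ± 0.20 (edgeR's quasi-likelihood test, adjusted p = 0.172). The interval ran from -0.74 to 0.08.

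miR-181d-5p was at 346, 275, 318, 307 and 177 CPM in TAC+PDE5A-I hearts, against 364, 280, 251, 264 and 251 CPM in TAC hearts. Only the shallowest library lay below the TAC range. Its log2 fold change was 0.01 ± 0.17 (edgeR's quasi-likelihood test, adjusted p = 0.953), with an interval from -0.35 to 0.38. So 2 of 4 guides were called higher and 0 lower in TAC+PDE5A-I against TAC, where 21.6% of all 561 microRNAs were called higher and 24.8% lower. The median log2 fold change was 0.25 over the 4 guides and -0.31 over all 561.

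**Figure D2:**
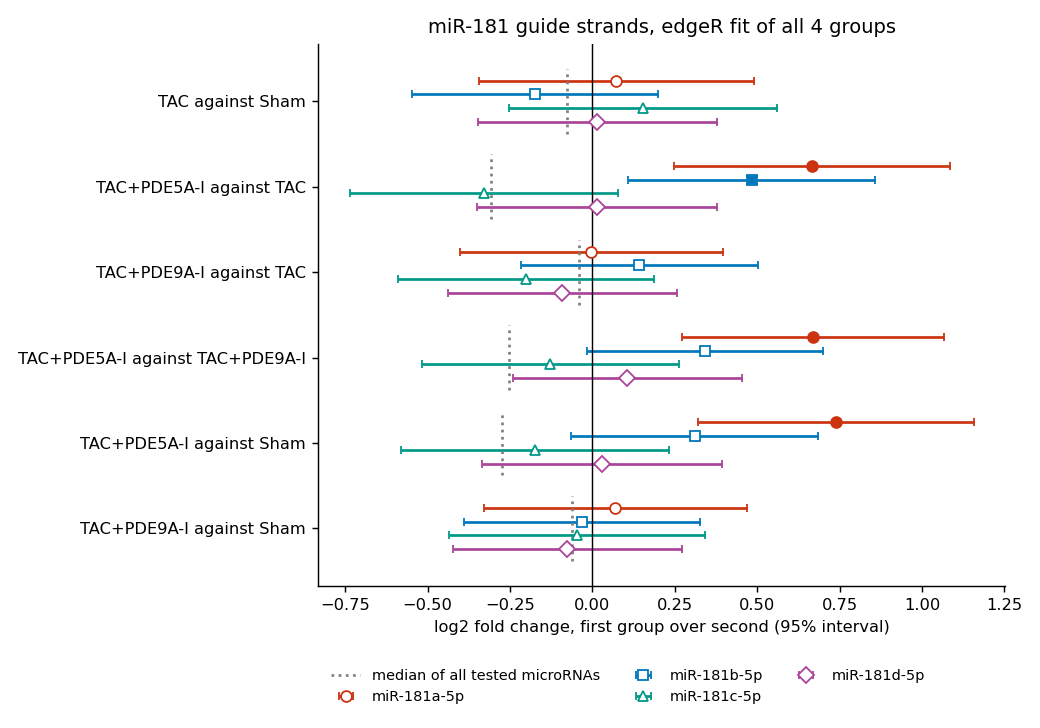
Log2 fold changes of the 4 guide strands (x axis, points with 95% intervals) in each of the 6 comparisons (y axis) from the edgeR fit of all 4 groups. Filled symbols passed at an adjusted p under 0.05, and dotted lines mark the median of all 561 microRNAs. The filled symbols are miR-181a-5p in the 3 comparisons of TAC+PDE5A-I, at 0.67, 0.67 and 0.74, and miR-181b-5p against TAC, at 0.48.

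Without the 4 libraries under 2000000 counts, a comparison chosen after their totals were seen, no guide was called in TAC+PDE5A-I against TAC. The log2 fold change was then 0.30 for miR-181a-5p (edgeR's quasi-likelihood test, adjusted p = 0.290), 0.38 for miR-181b-5p (adjusted p = 0.149), -0.12 for miR-181c-5p (adjusted p = 0.735) and 0.16 for miR-181d-5p (adjusted p = 0.577). DESeq2 on all libraries also gave 2 calls, but of miR-181a-5p higher (log2 0.47, adjusted p = 0.0150) and miR-181c-5p lower (-0.51, adjusted p = 0.0141). Over 34 alternatives adjusted p ran from 0.00223 to 0.290 for miR-181a-5p and from 0.00480 to 0.462 for miR-181b-5p. Both were positive in all of them, but the call was lost in 10 for miR-181a-5p and in 22 for miR-181b-5p. In the same 34, miR-181c-5p passed as lower in 8 and as higher in 2. The part of depth, GC content and cell type markers in these results was not tested.

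Single libraries also decided calls. Leaving out 1 of Sham 5, TAC 3, TAC+PDE5A-I 1, 3, 4 or 5, or TAC+PDE9A-I 2 or 3 ended the call of miR-181a-5p, with log2 values of 0.31 to 0.43 and adjusted p of 0.0657 to 0.182 (edgeR's quasi-likelihood test). In all 8 of those fits TMM took another library as its scaling reference than in the fit with all libraries, where it was TAC+PDE5A-I 2. For miR-181b-5p, 14 of the 21 fits with 1 library left out ended the call, at log2 values of 0.16 to 0.49 and adjusted p of 0.0551 to 0.462. The libraries were Sham 5, TAC 3, 4 and 5, all of TAC+PDE5A-I, and TAC+PDE9A-I 2 to 6. The TMM reference changed in 12 of those 14 fits. For miR-181c-5p, 5 fits with 1 library left out (Sham 5, TAC 3, TAC+PDE5A-I 1 or 2, or TAC+PDE9A-I 2) made it pass as lower. Its log2 values were then -0.63 to -0.55 (edgeR's quasi-likelihood test, adjusted p of 0.0227 to 0.0463), and the TMM reference changed in all 5.

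The scaling between libraries set the level of all fold changes in this comparison. The median of all microRNAs was -0.31 with TMM, -0.46 with RLE, 0.16 with upper-quartile scaling and -0.27 with total counts. Relative to that median, miR-181a-5p was at 0.97, 0.93, 1.04 and 0.97 in the same order and miR-181b-5p at 0.79, 0.75, 0.84 and 0.79. Relative to the median, miR-181d-5p was at 0.32, 0.28, 0.34 and 0.33, and miR-181c-5p was between -0.05 and 0.00. The order of the guides was the same under the 4 scalings. A change of scaling moves all guides by nearly the same amount, so this order was largely fixed in advance and tests nothing. Signs did depend on the scaling: miR-181c-5p was 0.15 with upper-quartile scaling, and miR-181d-5p was -0.19 with RLE.

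**Figure D3:**
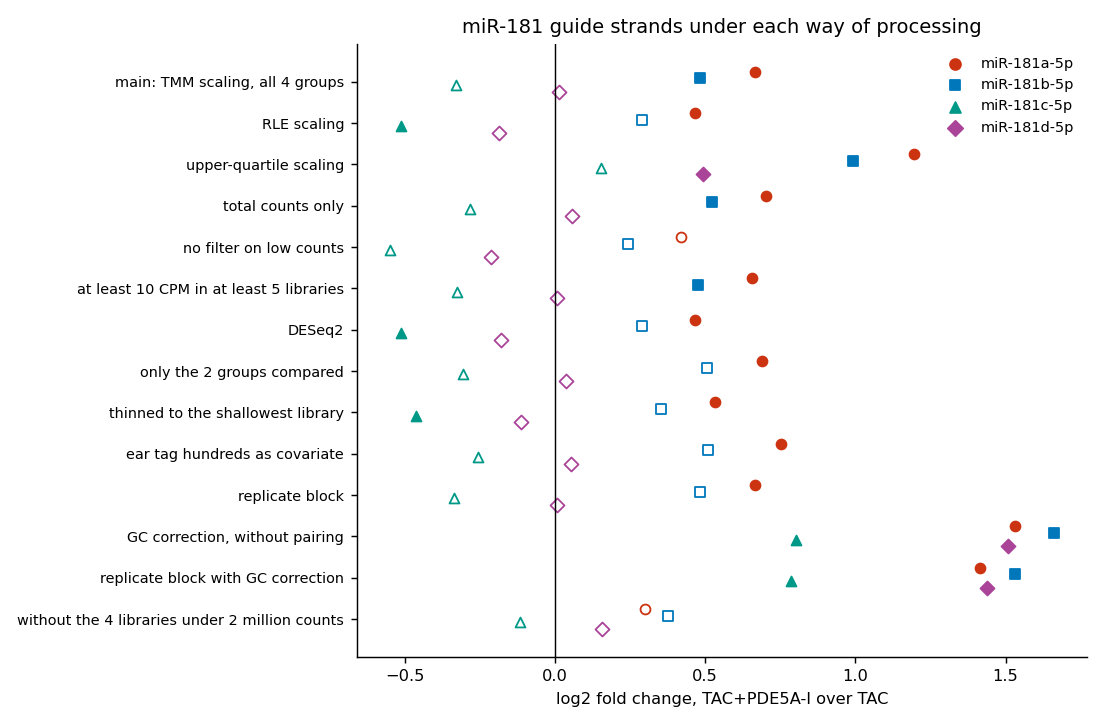
Log2 fold changes of the 4 guide strands in TAC+PDE5A-I over TAC (x axis) under each way of processing the counts (y axis). Filled symbols have an adjusted p under 0.05. miR-181a-5p is positive throughout, from 0.30 without the 4 shallow libraries to 1.53 with the GC correction, and miR-181c-5p lies on both sides of 0.

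A ratio of guides within a library does not depend on the scaling. Sildenafil-treated hearts had 13.6, 10.3, 19.5, 24.2 and 26.7 counts of miR-181a-5p per count of miR-181c-5p, against 9.64, 9.56, 8.85, 7.20 and 9.80 in TAC hearts. Each TAC+PDE5A-I library lay above every TAC library, the deeper pair by the smallest margin, and this was the second of the 2 among 24 without overlap. Separation was common in this comparison among the levels of single microRNAs, where the groups of 33.9% of all 561 did not overlap. No such share was computed for ratios between all microRNAs. TAC+PDE9A-I hearts had a lowest ratio of 8.49, a median of 8.67 and a highest of 20.4, and the highest was their shallow library. In the 17 other libraries of the study the ratio ran from 7.20 to 13.6. This ratio was looked at after its values were seen and was not tested.

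**Figure D4:**
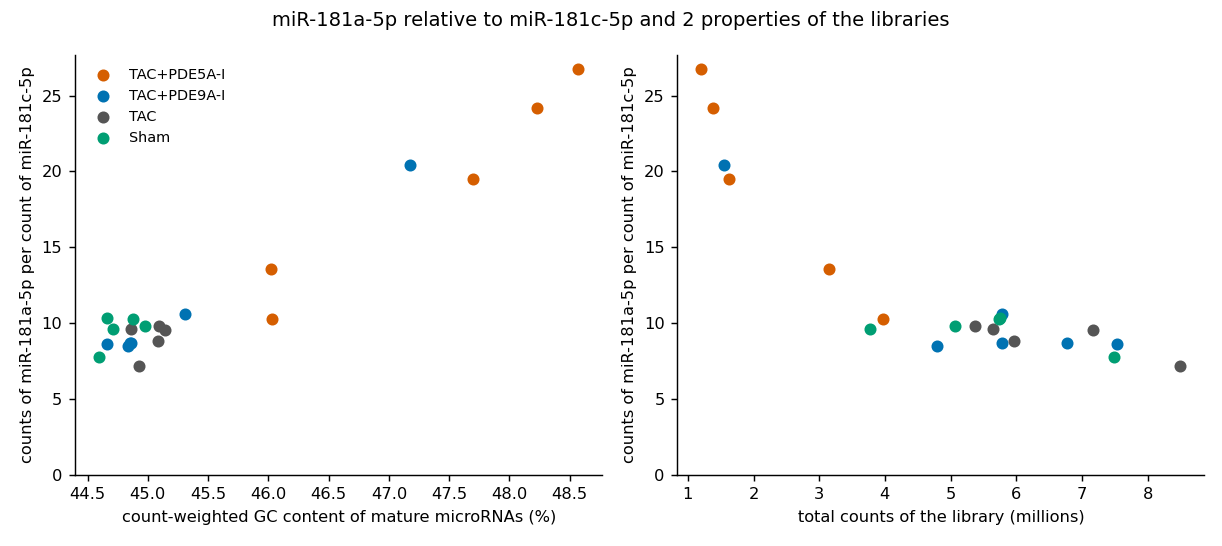
Counts of miR-181a-5p per count of miR-181c-5p (y axis) against the count-weighted GC content of the library (left, %) and its total counts (right, axis in units of 1000000 counts). Each point is 1 library, coloured by group. The 4 libraries under 2000000 counts have ratios of 19.5 to 26.7 and the other 17 have ratios of 7.20 to 13.6.

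The share of all counts taken by the 4 guides together was 3.09 ± 0.579% in TAC+PDE5A-I, 2.09 ± 0.439% in TAC+PDE9A-I, 2.01 ± 0.209% in TAC and 1.74 ± 0.272% in Sham (SD; n = 5, 6, 5 and 5). miR-181a-5p made up 89.0% of the family's counts in TAC+PDE5A-I, 84.6% in TAC+PDE9A-I, 84.1% in TAC and 83.7% in Sham on average. miR-181c-5p made up 5.30%, 8.52%, 9.44% and 8.83% in the same groups. The sildenafil averages were carried by the 3 shallow libraries, in which miR-181a-5p made up 90.9% and miR-181c-5p 3.94%. In the 2 deeper sildenafil libraries the guides took 2.60% of all counts, with 86.0% miR-181a-5p and 7.34% miR-181c-5p. Without its shallow library, TAC+PDE9A-I averaged 1.95% of all counts, with 83.8% miR-181a-5p and 9.36% miR-181c-5p.

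The labels name no batch, but they give ear tag numbers. Tags in the 500s gave 20505 CPM of miR-181a-5p over 2 TAC+PDE5A-I mice and 14365 CPM in 1 TAC mouse. Tags in the 600s gave 31022 CPM over 3 TAC+PDE5A-I mice, all of them the shallow libraries, and 15459 CPM over 2 TAC mice. Values within a range were not tested. With ear tag range added to the model, the log2 fold change of miR-181a-5p was 0.75 (edgeR's quasi-likelihood test, adjusted p = 0.0131), and that of miR-181b-5p was 0.51 with its call lost (adjusted p = 0.0533).

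PDE9A inhibition was not followed by a called change in the family. miR-181a-5p had a lowest level of 14217, a median of 15593 and a highest of 23755 CPM in TAC+PDE9A-I hearts, against 14365, 15533 and 21418 CPM in TAC hearts. miR-181b-5p was at 890, 1018 and 1646 CPM in TAC+PDE9A-I hearts, against 881, 1035 and 1143 CPM in TAC hearts, again as lowest, median and highest. The highest value of both guides came from the shallow TAC+PDE9A-I library, and the groups overlapped.

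Lowest, median and highest levels of miR-181c-5p were 1163, 1700 and 2032 CPM in TAC+PDE9A-I hearts, against 1586, 1859 and 2222 CPM in TAC hearts. For miR-181d-5p they were 212, 262 and 301 CPM in TAC+PDE9A-I hearts, against 251, 264 and 364 CPM in TAC hearts. The shallow library was the lowest for miR-181c-5p, and both guides overlapped between the groups.

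Log2 fold changes in TAC+PDE9A-I against TAC were 0.00 for miR-181a-5p (interval -0.40 to 0.40), 0.14 for miR-181b-5p (-0.22 to 0.50), -0.20 for miR-181c-5p (-0.59 to 0.19) and -0.09 for miR-181d-5p (-0.44 to 0.26). With edgeR's quasi-likelihood test 0 of 4 were called, 0 had an unadjusted p under 0.05, and adjusted p ran from 0.991 to 0.997. DESeq2 called 0 as well. Of all 561 microRNAs 0% were called, and 16 had an unadjusted p under 0.05. Without the 4 shallow libraries the log2 fold changes were -0.10, 0.02, -0.09 and -0.09 in the same order, and 0 were called. Both drug comparisons share the TAC hearts.

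Set against each other, the drugs, given over the same weeks at doses that the labels do not state, differed for miR-181a-5p. It averaged 26815 ± 6583 CPM in TAC+PDE5A-I (SD, n = 5) and 16856 ± 3623 CPM in TAC+PDE9A-I (SD, n = 6). The log2 difference was 0.67 ± 0.19 (edgeR's quasi-likelihood test, adjusted p = 0.0141), and the groups overlapped. TAC+PDE9A-I 4 and 5 lay above the lowest sildenafil library, and TAC+PDE9A-I 4 is a deep library. The same contrast tests the difference of the drug effects on TAC hearts. It gave 1 called guide of 4, where 15.2% of all 561 microRNAs were called higher and 19.6% lower. Differences of the other guides were 0.34 for miR-181b-5p (interval -0.02 to 0.70), -0.13 for miR-181c-5p (-0.52 to 0.26) and 0.11 for miR-181d-5p (-0.24 to 0.45), at adjusted p of 0.120 to 0.658 (edgeR's quasi-likelihood test). The miR-181a-5p call was lost without the 4 shallow libraries, at 0.40 (adjusted p = 0.158). It was also lost without any 1 of Sham 5, TAC+PDE5A-I 3, 4 or 5, or TAC+PDE9A-I 2, 3 or 6, at 0.38 to 0.53 (edgeR's quasi-likelihood test, adjusted p of 0.0525 to 0.108). In all 7 of those fits TMM took another scaling reference than in the fit with all libraries. A fit of the 2 drug groups alone lost the call as well, at 0.52 (adjusted p = 0.106). Over the 34 alternatives for miR-181a-5p adjusted p ran from 0.00633 to 0.158.

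Against Sham hearts, 1 guide of 4 was called in TAC+PDE5A-I and 0 in TAC+PDE9A-I. miR-181a-5p averaged 26815 ± 6583 CPM in TAC+PDE5A-I and 16068 ± 2437 CPM in Sham (SD, n = 5 each), a log2 fold change of 0.74 ± 0.20 (edgeR's quasi-likelihood test, adjusted p = 0.00646). Here 19.1% of all 561 microRNAs were called higher. The value was 0.35 without the 4 shallow libraries (adjusted p = 0.200), and 0.44 without TAC+PDE5A-I 3 or without TAC+PDE5A-I 4 (adjusted p of 0.0617 and 0.0649), and over 34 alternatives adjusted p ran from 0.00117 to 0.200. In the 2 fits without TAC+PDE5A-I 3 or 4, TMM took another scaling reference than with all libraries. The other log2 fold changes were 0.31 for miR-181b-5p, -0.17 for miR-181c-5p and 0.03 for miR-181d-5p (adjusted p of 0.168 to 0.907).

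In TAC+PDE9A-I against Sham the log2 fold changes lay between -0.08 and 0.07 for the 4 guides, at adjusted p of 0.970 to 0.992 (edgeR's quasi-likelihood test). Of the 4, 0 had an unadjusted p under 0.05 and DESeq2 called 0, while 1.96% of all 561 microRNAs were called in either direction. Averages ran in the order TAC+PDE5A-I, TAC, TAC+PDE9A-I, Sham for miR-181a-5p and in the order TAC, Sham, TAC+PDE9A-I, TAC+PDE5A-I for miR-181c-5p. For miR-181b-5p the order was TAC+PDE5A-I, Sham, TAC+PDE9A-I, TAC, and for miR-181d-5p it was TAC+PDE5A-I, TAC, Sham, TAC+PDE9A-I. In each order the neighbours among TAC, TAC+PDE9A-I and Sham differed by less than the SD between mice.

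The passenger arms of the same hairpins were measured in the same libraries. Both miR-181a hairpins are shown because their guides are identical and their 3p arms are not, so a 3p arm names its hairpin. Capitals mark the mature arms, 5p first.
Mir181a-1: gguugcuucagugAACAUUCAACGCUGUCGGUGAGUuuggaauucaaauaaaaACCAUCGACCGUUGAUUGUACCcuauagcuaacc
Mir181a-2: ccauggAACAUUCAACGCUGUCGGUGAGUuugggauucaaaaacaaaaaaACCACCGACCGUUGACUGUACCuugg
Of the 6 passenger arms, miR-181a-1-3p (mean 656 CPM, rank 71) and miR-181c-3p (103 CPM, rank 140) had counts in all 21 libraries. miR-181d-3p had 21 to 32 counts in 6 libraries, which were 0 of TAC+PDE5A-I, 1 of TAC+PDE9A-I, 2 of TAC and 3 of Sham. It is listed at 0 in the others, passed the filter and was called in no comparison. miR-181a-2-3p had counts in 3 libraries (6 to 37), miR-181b-1-3p in 4 (19 to 20) and miR-181b-2-3p in 4 (7 to 21), and none of the 3 passed the filter. Of the miR-181a passengers, that of the chromosome 1 hairpin was thus the one with a level that could be compared.

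miR-181a-1-3p was at 663, 570, 452, 448 and 555 CPM in TAC hearts, against 752, 864, 811, 702 and 740 CPM in Sham hearts. Each TAC library lay below every Sham library, while the guide of the same hairpin overlapped. In this comparison the groups of 16.9% of all 561 microRNAs did not overlap. Averages were 538 ± 90.3 CPM in TAC and 774 ± 63.7 CPM in Sham (SD, n = 5 each), a log2 fold change of -0.53 ± 0.21 that did not pass edgeR's quasi-likelihood test (adjusted p = 0.180). It did pass with DESeq2 at -0.52 (adjusted p = 0.0448), and without the 4 shallow libraries, none of them TAC or Sham, at -0.54 (adjusted p = 0.0351, edgeR's quasi-likelihood test). Over 34 alternatives its adjusted p ran from 0.0351 to 0.704, and its log2 fold change was negative in all of them, from -0.64 to -0.31.

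The ratio of both arms within a library needs no scaling, and it was examined after these values were seen. There were 32.3, 31.2, 31.8, 34.3 and 28.0 counts of miR-181a-5p per count of miR-181a-1-3p in TAC hearts, against 21.9, 22.1, 20.2, 17.5 and 21.8 in Sham hearts. All TAC libraries lay above all Sham libraries. The guide can come from either hairpin, so the ratio is not that of 1 precursor. Averages were 31.5 ± 2.31 in TAC and 20.7 ± 1.94 in Sham (SD, n = 5 each), a 1.53-fold difference.

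On the log2 scale the ratio differed by 0.61 ± 0.17 between TAC and Sham. It had the smallest p among 75 pairs of arms but did not pass limma's test over all 75 (adjusted p = 0.121). The pairs were arms of matching name, to which the miR-181a pair was added although its 3p name carries a hairpin number. Other pairs whose arm names do not match were left out. Of the 75 ratios, 0% were called, 5 had an unadjusted p under 0.05, and 9.33% had groups that did not overlap. It passed in a limma fit of TAC and Sham alone (adjusted p = 0.00683) and without the 4 shallow libraries (adjusted p = 0.0374), and over 25 alternatives adjusted p ran from 0.00683 to 0.461 with log2 differences of 0.55 to 0.65. Within tags in the 100s it was 31.7 over 2 TAC mice and 21.4 over 3 Sham mice, and within the 600s it was 31.2 and 19.6 over 2 TAC and 2 Sham mice.

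**Figure D5:**
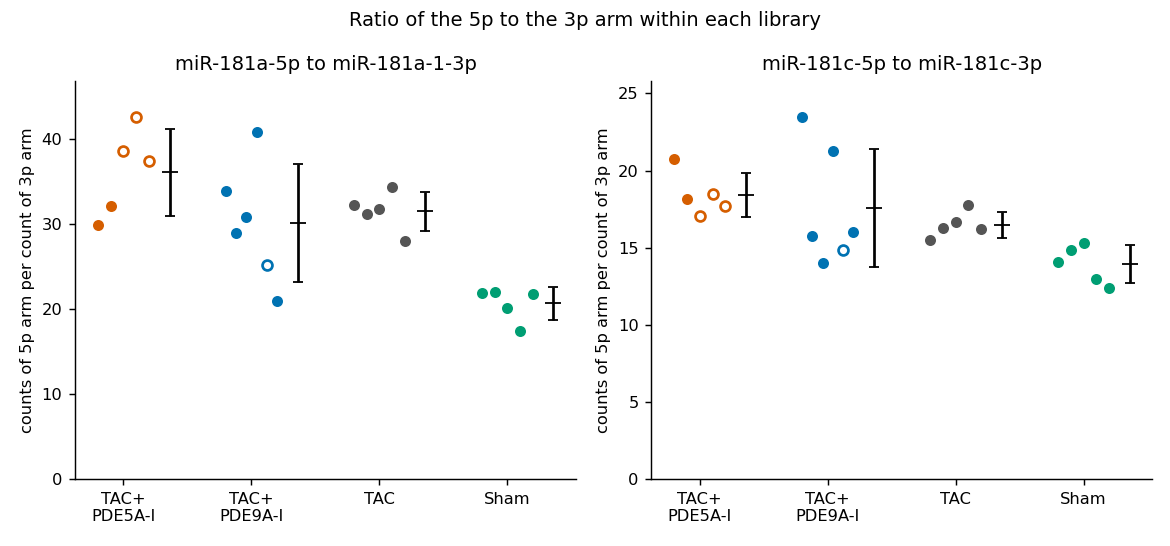
Counts of the 5p arm per count of the 3p arm (y axis) for miR-181a (left) and miR-181c (right) in each library, by group (x axis). Each circle is 1 mouse, open circles are the 4 libraries under 2000000 counts, and bars are mean ± SD. For miR-181a all TAC libraries lie at 28.0 to 34.3 and all Sham libraries at 17.5 to 22.1.

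Drug-treated hearts kept a similar or wider range of this ratio. It was 29.9, 32.1, 38.7, 42.6 and 37.4 in TAC+PDE5A-I, and in TAC+PDE9A-I its lowest value was 20.96, its median 29.9 and its highest 40.8. Each TAC+PDE5A-I library lay above every Sham library, and TAC+PDE9A-I overlapped Sham through 1 library. The log2 difference to Sham was 0.80 ± 0.17 for TAC+PDE5A-I (limma, adjusted p = 0.000908, where 33.3% of the 75 ratios were called higher and the groups of 41.3% did not overlap), and it passed in each of 25 alternatives, at adjusted p of 0.000365 to 0.0286, the last without the 4 shallow libraries (log2 0.59). For TAC+PDE9A-I it was 0.52 ± 0.16 (adjusted p = 0.0791, where 4% of the ratios were called), and 0.61 without TAC+PDE9A-I 6 (limma, adjusted p = 0.0183). Without the 4 shallow libraries it was 0.56 (limma, adjusted p = 0.0397). Against TAC hearts the ratio differed by 0.19 ± 0.17 in TAC+PDE5A-I (interval -0.16 to 0.53, limma, adjusted p = 0.326) and by -0.09 ± 0.16 in TAC+PDE9A-I (interval -0.43 to 0.24, adjusted p = 0.843). Without the 4 shallow libraries these differences were -0.02 (adjusted p = 0.946) and -0.05 (adjusted p = 0.899).

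miR-181a-1-3p itself was at 788, 545, 848, 778 and 726 CPM in TAC+PDE5A-I hearts. Against TAC its log2 fold change was 0.45 ± 0.21 (edgeR's quasi-likelihood test, adjusted p = 0.0792). It was 0.33 without the 4 shallow libraries (adjusted p = 0.309). It passed in 4 of 34 alternatives: upper-quartile scaling (0.96, adjusted p = 0.0106), total counts (0.50, adjusted p = 0.0390), the GC correction (0.95, adjusted p = 0.0284) and that correction with a replicate block (0.89, adjusted p = 0.0370). Over the 34 it ran from 0.15 to 0.96. In TAC+PDE9A-I hearts its lowest level was 425, its median 514 and its highest 941 CPM, the last in the shallow library.

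miR-181c-3p, the passenger of miR-181c, was at 83.5, 93.7, 98.5, 74.1 and 57.4 CPM in TAC+PDE5A-I hearts, against 143, 114, 97.2, 120 and 97.8 CPM in TAC hearts. The groups overlapped through 1 sildenafil library. It fell by 0.49 ± 0.19 on the log2 scale (edgeR's quasi-likelihood test, adjusted p = 0.0394), where 24.8% of all microRNAs were called lower. The call was lost without the 4 shallow libraries (-0.35, adjusted p = 0.289), with upper-quartile scaling (-0.01, adjusted p = 0.974), and without any 1 of TAC 1, 2 or 4 (-0.49 to -0.40, adjusted p of 0.0611 to 0.106). It was also lost in a fit of the 2 groups alone (-0.47, adjusted p = 0.0785) and with ear tag range (-0.48, adjusted p = 0.0781), which makes 7 of 34 alternatives. Against Sham, at 151, 124, 104, 98.0 and 132 CPM, miR-181c-3p fell by 0.58 ± 0.19 in TAC+PDE5A-I (edgeR's quasi-likelihood test, adjusted p = 0.0199, where 23.5% of all microRNAs were called lower), a call lost in 5 of 34 alternatives. These were upper-quartile scaling (-0.09, adjusted p = 0.716), total counts (-0.39, adjusted p = 0.0718), ear tag range (-0.57, adjusted p = 0.0621), without Sham 1 (-0.49, adjusted p = 0.0627) and without the 4 shallow libraries (-0.46, adjusted p = 0.157).

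The 5p to 3p ratio of miR-181c was 15.5, 16.3, 16.7, 17.8 and 16.2 in TAC hearts, against 14.1, 14.9, 15.3, 13.0 and 12.4 in Sham hearts. Each TAC library lay above every Sham library by a small margin, where 9.33% of the 75 ratios had groups that did not overlap. The log2 difference of 0.25 ± 0.15 did not pass (limma, adjusted p = 0.767). TAC+PDE5A-I hearts were at 20.8, 18.1, 17.1, 18.5 and 17.7, also above every Sham heart, with a log2 difference to Sham of 0.40 ± 0.15 (limma, adjusted p = 0.0236). In that comparison 33.3% of the 75 ratios were called higher, the groups of 41.3% did not overlap, and this ratio had rank 43 of 75 by p. That call was lost without Sham 5 (0.36, adjusted p = 0.0593) and without the 4 shallow libraries (0.48, adjusted p = 0.0559). Over the 6 comparisons and both hairpins 12 such ratios were computed.

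Across libraries the guides varied together in part. The Pearson r of log2 CPM over the 21 libraries was 0.86 for miR-181a-5p and miR-181b-5p and 0.77 over the 17 libraries above 2000000 counts. For miR-181c-5p and miR-181d-5p it was 0.56 and 0.57. Guides of different clusters were as close over the deeper libraries: miR-181a-5p and miR-181d-5p had 0.31 and 0.85, and miR-181b-5p and miR-181d-5p 0.42 and 0.73. For miR-181b-5p and miR-181c-5p the r was -0.31 and 0.19. For miR-181a-5p and miR-181c-5p it was -0.23 over the 21 libraries and 0.58 over the 17, so its sign turned with the shallow libraries. These values describe libraries that share groups, depth and base composition.

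The microRNAs outside the family whose levels were most like a guide were taken from 299 with a mean of at least 10 CPM. For miR-181a-5p they were miR-350-5p (r = 0.96 over 21 libraries, 0.89 over 17), miR-151-3p (0.93 and 0.75) and miR-671-3p (0.91 and 0.65). For miR-181b-5p they were let-7a-5p (0.88 and 0.78), miR-1964-3p (0.85 and 0.68) and miR-92a-3p (0.85 and 0.77). For miR-181c-5p they were miR-99a-5p (0.82 and 0.59), miR-24-3p (0.82 and 0.60) and miR-148a-5p (0.80 and 0.55), and for miR-181d-5p miR-107-3p (0.84 and 0.73), miR-93-5p (0.76 and 0.63) and miR-25-3p (0.73 and 0.67). All 12 values were lower over the deeper libraries.

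Other cell types' markers were read in the same libraries, since guides of the family are known from lymphocytes and endothelium. Summed leukocyte markers (5 of 5 measured) ran from 2180 to 3150 CPM in TAC+PDE5A-I, 1771 to 3062 in TAC+PDE9A-I, 1397 to 2523 in TAC and 2222 to 2674 in Sham, with miR-142a-3p at 0 in at least 1 TAC+PDE5A-I library and no other marker of any list at 0. Those ranges overlapped between all groups. Stromal markers (3 of 3 measured) ran from 1362 to 3581 CPM in TAC+PDE5A-I, 1069 to 13480 in TAC+PDE9A-I, 5429 to 8206 in TAC and 2132 to 2622 in Sham. Smooth muscle markers (2 of 2) ran from 4830 to 43177 CPM in TAC+PDE5A-I, 11580 to 100318 in TAC+PDE9A-I, 70058 to 143366 in TAC and 73453 to 118799 in Sham, and erythroid markers (2 of 2) from 20.9 to 387, 52.5 to 1271, 392 to 1068 and 408 to 1271 CPM. In TAC+PDE9A-I endothelial markers ran from 3136 to 47691 CPM and cardiomyocyte markers from 72305 to 195314 CPM, and in Sham from 32700 to 49225 and from 139510 to 177835 CPM. Their part in the results was not tested.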

How the data were processed

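Small RNA from left ventricle of 21 mice was sequenced, 1 library per mouse. The authors deposited raw read counts per mature microRNA. The submitters' processing notes name, without roles, DESeq 1.26.0, Bowtie 1.1.1, cutadapt 1.8 and CASAVA 1.8.4. The sources used here name no build or annotation. Of 25958 lines 1903 carried a name, 24055 were blank and 12 names were joined, and 832 microRNAs had a count. Totals ran from 1205417 to 8497792.

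Counts were analysed with edgeR 4.0.16 in R 4.3.3: filterByExpr (561 microRNAs), TMM, a robust quasi-likelihood fit of all 4 groups without covariates (17 residual degrees of freedom) and Benjamini-Hochberg adjustment, called under 0.05. Log2 CPM used a prior count of 2. The script was tested on simulated data. The log2 5p to 3p ratios (0.5 added to both counts, 75 pairs, both arms at a mean of 10 CPM) used limma 3.58.1 and were added after values were seen. Arms were paired by matching name, and the miR-181a pair was added by hand. DESeq2 1.42.0, 3 other scalings, 2 other filters, thinning, GC, ear tag and replicate terms and left-out libraries were alternatives. The 4 guides, every 3p arm, and per guide the 3 microRNAs with the highest r were named. The members and the marker lists of 6 cell types were chosen with earlier results of these data known. Replicate numbers did not pair the mice.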

Additional observations from a re-analysis of the deposited data

Results flagged for a closer look

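Of 32 groups of levels checked for a mouse far from the rest of its group, 2 held one, and chance alone picks out about 1 in 20 groups. miR-181a-5p was at 23755 CPM in TAC+PDE9A-I 5, while the other mice of that group lay between 14217 and 17558 CPM. That library is 1 of the 4 under 2000000 counts. miR-181d-5p was at 364 CPM in TAC 1, while the other TAC mice lay between 251 and 280 CPM, and that library had 5649824 counts. TAC 1 was the highest TAC library for every guide. The effects of the drugs on TAC hearts differed for miR-181a-5p by 0.67 on the log2 scale, higher with sildenafil (edgeR's quasi-likelihood test of the difference, adjusted p = 0.0141), and by 0.40 without the 4 shallow libraries (adjusted p = 0.158).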

How the results depend on the processing

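Over 34 alternatives per comparison, 0 guides were called in TAC against Sham, TAC+PDE9A-I against TAC and TAC+PDE9A-I against Sham. In TAC+PDE5A-I against TAC, 2 guides were called, against 4 with the GC correction, 3 with upper-quartile scaling and 1 with the 2 groups alone. The number was 1 with ear tag range, 0 without a filter, 0 without the 4 shallow libraries and 0 to 2 with 1 library left out. DESeq2 also called 2, but with miR-181c-5p as lower in place of miR-181b-5p. miR-181d-5p was called higher in 3 of the 34 alternatives. In TAC+PDE5A-I against TAC+PDE9A-I, 1 was called, against 3 with the GC correction, 2 with upper-quartile scaling, 0 with the 2 groups alone, 0 without a filter, 0 without the shallow libraries and 0 to 1 with 1 left out. In TAC+PDE5A-I against Sham, 1 was called, against 4 with the GC correction, 3 with upper-quartile scaling, 2 with total counts, 0 without the shallow libraries and 0 to 1 with 1 left out. The GC correction, on the 487 microRNAs (86.8%) with a sequence, turned miR-181c-5p to higher in TAC+PDE5A-I, at log2 0.80 against TAC, 0.72 against TAC+PDE9A-I and 0.89 against Sham (edgeR's quasi-likelihood test, adjusted p = 0.0125, 0.0351 and 0.00645). The cause was not tested.

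Same-numbered mice showed no pairing: 7 of 30 pairs correlated above 0.1 (-0.21 to 0.35), and 9 of 60 best matches shared a number. With the replicate block, in which the lone mouse numbered 6 no longer informs any comparison, 1 guide was called in TAC+PDE5A-I against TAC (miR-181a-5p, adjusted p = 0.0254), 1 against TAC+PDE9A-I and 1 against Sham. With the block and the GC correction these were 4, 0 and 4, and miR-181c-5p was at log2 0.79 against TAC and 0.87 against Sham. Over all microRNAs, 12 were higher and 1 lower in TAC against Sham, against 75 and 23 in a fit of those groups alone and 33 and 21 with DESeq2. In that comparison, counts over all alternatives ran from 3 to 75 higher and from 0 to 29 lower. For TAC+PDE5A-I against TAC they ran from 41 to 172 higher (121 in the reported fit) and from 48 to 191 lower (139). Counts in 6 or fewer libraries leave 4 passenger arms without a usable comparison.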
